A study of Homo sapiens with 9 samples.

Results

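*FOXA1*, *HOXB13*, *GATA2*, *GRHL2* and *SPDEF* are transcription factor genes linked to the identity of prostate epithelial cells, where some of them act beside the androgen receptor. The 5 genes were chosen by name, and all were present among the 19984 protein-coding genes measured. RNA-seq was carried out in LNCaP, an androgen-sensitive line of human prostate cancer cells, to compare cells with and without the long noncoding RNA gene *EPCART*. Clones del-4 and del-56 are *EPCART*-del clones, which lack the promoter and the first exons of *EPCART* after editing with CRISPR-Cas9, and the WT clone is their wild-type control. Each was 1 clone, grown for 48 h in normal medium with no added agent, and each gave 3 libraries from 3 cultures. The 3 cultures of a clone are repeats of that clone, so p-values measure the spread between cultures and not between independent deletions. The same 3 WT libraries served as control for both deletion clones. *EPCART* itself and the androgen receptor gene were not analysed here.

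The androgen receptor is a nuclear receptor that enters the nucleus and binds DNA when androgen is present. In prostate cells much of its binding lies next to sites of FOXA1, HOXB13 and GATA2. FOXA1 is a pioneer factor that opens compacted chromatin, HOXB13 is a homeobox factor that stays active in the adult prostate, and GATA2 is a zinc-finger factor that helps bring coactivators to androgen-responsive enhancers. GRHL2, a grainyhead-like factor, maintains epithelial cell junctions, and SPDEF is an ETS-domain factor of luminal and secretory epithelia.

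The sum of reads on genes ranged from 91074556 to 118877134 per library, taking the smallest step between values as 1 read. In 3 libraries (del-4 replicates 2 and 3 and del-56 replicate 2) that step was close to 1, and their read sums are less certain. The luminal keratin *KRT8* had a mean normalized count of 58159 in WT, 54036 for del-4 and 58147 for del-56, and *KRT18* of 33741, 29979 and 32528, so both luminal keratins were high in all 3 clones. Both were called lower in del-4, by 0.11 (adjusted p = 0.039, limma) and 0.17 (adjusted p = 0.00059, limma) on the log2 scale. Of the other luminal markers, the keratin *KRT19* had a mean of 476 in WT, 810.0 for del-4 and 1687 for del-56. *KRT19* rose in each deletion clone and was called in each, with log2 fold changes of 0.77 and 1.83, respectively. In the same order, the means of *CD24* were 2320.4, 2344 and 5477, and those of *ACP3* 916, 809 and 1251. These 2 genes were called for del-56 alone, where they rose by 1.24 and 0.45. Luminal calls thus numbered 1 higher and 2 lower of 5 for del-4, against 3 higher and 0 lower for del-56. The basal genes *KRT5* and *TP63* had mean normalized counts of at most 0.32 and 3.86 in any clone, and the 5 basal markers summed to between 32.1 and 83.0 per library. Of the other markers, *PTPRC*, *PECAM1*, *COL1A2* and *DCN* of immune, endothelial and stromal cells had means of at most 3.34, and *INSM1* of neuroendocrine cells of at most 0.636. The 6 immune, endothelial and stromal markers summed to between 1656 and 1929 per library in del-4, between 1724 and 1891 in del-56 and between 1439.9 and 1540.4 in WT, mostly from *COL1A1* and *CD68*, and *COL1A1* was called higher in both deletion clones (0.33 and 0.34 on the log2 scale). The 7 neuroendocrine markers, mostly *ENO2* and *DLL3*, summed to between 4247 and 4363 in del-4, above the 3286 to 3666 of del-56 and the 3358 to 3539.8 of WT, and *ENO2* was called higher in del-4 (0.53, adjusted p = 4.6e-07, limma). Of the 5 neuroendocrine markers tested in del-4, 2 were called higher and 1 lower, and their median log2 value was -0.23. Over all genes, 20.5% were called higher and 20.2% lower in del-4. The 5 luminal markers summed to between 86993 and 88560 in del-4, between 95682 and 100912 in del-56 and between 92835 and 99655 in WT. The 8 mesenchymal markers summed to between 30258 and 32833, between 14712 and 18407 and between 36302 and 36810, respectively, of which the fibronectin gene *FN1* made up most, and *ZEB2* was at 0 in every library. Whether these differences bear on the lineage factors was not tested.

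In GENCODE version 44, 3 of these genes overlap genes of the opposite strand, taken from gene start to gene end with introns included. *FOXA1* shares 431 bases with *TTC6*, whose mean normalized count was 4820 in WT, 5308 for del-4 and 5517 for del-56. *GATA2* shares 3990 bases with the long noncoding RNA gene *GATA2-AS1*, and *GRHL2* shares bases with 1 long noncoding RNA gene and 2 processed pseudogenes. Whether the shared bases lie in exons of the factors was not examined. The libraries keep the strand of the RNA, but whether the counting used it is not given in the sources used here. Where exons are shared, part of the reads of these partners may be counted with the factors.

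The promoters of *SPDEF* and *GATA2* are shown because both genes changed in at least 1 deletion clone while their starts differ in base composition. *GRHL2* also changed, but its promoter and that of *HOXB13* were not among those examined here. Each is 250 bases before the transcription start, on the strand of the gene, from RefSeq on GRCh38.p14. In *SPDEF* (chr6:34556330-34556579) the capitals mark a match to the forkhead motif TATTTAC on the opposite strand, which begins 49 bases before the start, and in *GATA2* (chr3:128493202-128493451) no motif was found.
SPDEF: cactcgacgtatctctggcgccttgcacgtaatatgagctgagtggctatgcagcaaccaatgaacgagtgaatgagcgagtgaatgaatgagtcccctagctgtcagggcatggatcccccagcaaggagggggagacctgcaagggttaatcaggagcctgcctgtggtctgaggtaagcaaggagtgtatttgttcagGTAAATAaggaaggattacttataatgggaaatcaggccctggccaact
GATA2: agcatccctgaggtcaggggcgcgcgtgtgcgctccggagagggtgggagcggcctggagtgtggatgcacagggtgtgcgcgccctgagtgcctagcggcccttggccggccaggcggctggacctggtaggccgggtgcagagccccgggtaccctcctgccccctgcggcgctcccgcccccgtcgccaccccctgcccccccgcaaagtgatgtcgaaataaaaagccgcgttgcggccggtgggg
The *SPDEF* promoter had a GC content of 50.8% and that of *GATA2* 72.8%, beside a median of 58.0% over the 35116 promoters of the same length. The second *GATA2* start in the table had 71.2% and *FOXA1* 67.2%, and neither held a motif. The motifs searched on both strands were TGTTTAC and TATTTAC for forkhead factors, AGATAA and TGATAA for GATA factors, AACCNGTT for grainyhead-like factors, CAATAAA and TCGTAAA for HOXB13, and CCGGAAG and CAGGAAG for ETS factors. Motifs of different factors do not contain each other. Of all promoters, 5.27% held a forkhead match, 14.6% a GATA match, 1.49% a grainyhead-like match, 4.08% a HOXB13 match and 18.2% an ETS match. A match describes the letters of this window only.

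All 5 factors were strongly expressed in each clone. Levels of different genes were compared as normalized counts per kb of exon sequence, where a normalized count is the number of reads divided by the size factor of its library. *HOXB13* was the highest, at 12208 per kb in WT, followed by *FOXA1* at 8915, *GATA2* at 6249.7, *SPDEF* at 5867 and *GRHL2* at 1771. *HOXB13* lay within the top 2.05% of the 19923 genes with a known length in every clone, *FOXA1* within the top 2.93%, *GATA2* within the top 4.29%, *SPDEF* within the top 5.68% and *GRHL2* within the top 16.1%. The order was the same in all 3 clones. Neighbours in that order did not overlap between libraries of a clone, except *GATA2* and *SPDEF* in WT. There *GATA2* ranged from 6030.3 to 6366 per kb and *SPDEF* from 5609 to 6344. In del-4 the lowest *GATA2* level was 7118 per kb and the highest *SPDEF* level 5267, and in del-56 they were 6252 and 5065.

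**Figure D1:**
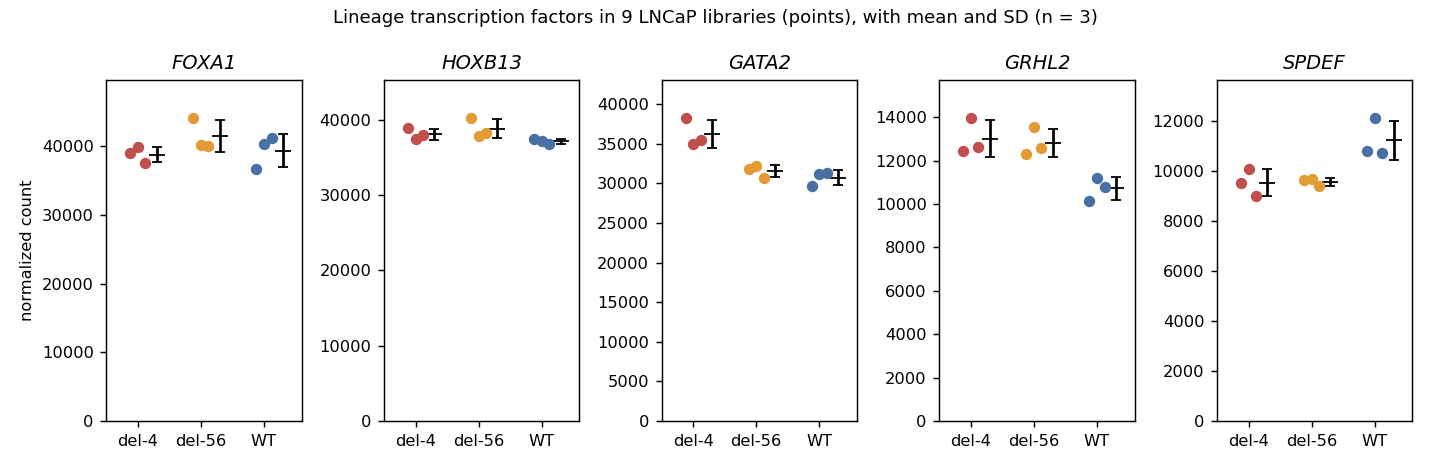
Normalized count (y axis, from 0) of each factor in the 3 libraries of del-4, del-56 and WT, as points, with the mean and SD of the 3 cultures beside them. *GRHL2* was above WT in all 6 deletion libraries and *SPDEF* below WT in all 6, while the 3 del-4 libraries were the highest for *GATA2* and *FOXA1* overlapped between each deletion clone and WT. Over all genes, libraries did not overlap with WT in either direction in 49.5% for del-4 and 48.7% for del-56.

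Of the 5 factors, *GATA2* and *GRHL2* rose and *SPDEF* fell in del-4, and *GRHL2* rose and *SPDEF* fell in del-56. The changes were between 14.6% and 21.4% of the WT level. With limma and Benjamini-Hochberg adjustment over all tested genes, 3 of 5 factors were called at an adjusted p under 0.05 in del-4, beside 40.7% of all 17401 genes tested (20.5% higher and 20.2% lower). In del-56, 2 of 5 were called, beside 39.7% of 17481 genes (19.2% higher and 20.5% lower). Counts of 3 and 2 of 5 genes lie near these shares and do not set the factors apart from genes in general. No factor passed a stricter rule, an unadjusted p under 0.05 together with a log2 change of more than 1 up or down, which 5.82% of genes passed in del-4 and 5.94% in del-56. Among all genes called in del-4, 50.3% were higher than in WT, and 32.4% were higher after each library was rescaled to the same total, which moved the median log2 fold change of all genes to -0.07. These are bulk samples, in which fewer cells of a type and less RNA per cell cannot be told apart.

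*FOXA1* (ENSG00000129514.8), the pioneer factor, lies on the minus strand of chromosome 14, from 37589552 to 37596059 in GENCODE version 44 on GRCh38. It had normalized counts of 38959.6, 39824 and 37572 in del-4, 44151, 40159 and 40001 in del-56, and 36607, 40308 and 41143 in WT. The lowest and the second highest of these 9 libraries were both WT, so the WT range covered every del-4 library. The WT mean was 39353 ± 2414 (SD, n = 3), against 38785 ± 1136 for del-4 and 41437 ± 2352 for del-56. Against WT, del-4 had a log2 value of -0.02 (SE 0.043, adjusted p = 0.759, limma), with a 95% confidence interval from -7.34% to 5.04% of the WT level. In del-56 it was 0.07 (SE 0.050, adjusted p = 0.258, limma), with an interval from -2.10% to 13.3%. No difference from WT beyond the spread between cultures was detected for *FOXA1* in either clone.

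*HOXB13* (ENSG00000159184.8), the homeobox factor, lies on the minus strand of chromosome 17, from 48724763 to 48728750. It had normalized counts of 38820.3, 37381 and 37995 in del-4, 40261, 37864 and 38281 in del-56, and 37378, 37186 and 36733 in WT. All 6 deletion libraries were above all 3 WT libraries, but the lowest del-4 library exceeded the highest WT library by fewer than 4 normalized counts. Taking each deletion clone alone, its libraries did not overlap those of WT, in either direction, in 49.5% of all genes for del-4 and in 48.7% for del-56. The share for both clones in the same direction was not computed. Against WT, del-4 had a log2 value of 0.04 (SE 0.034, adjusted p = 0.423, limma), and del-56 of 0.06 (SE 0.037, adjusted p = 0.194, limma). The 95% confidence intervals ran from -2.36% to 7.80% and from -1.05% to 10.5% of the WT level. The direction in del-4 turned with the scaling, to -0.03 after rescaling to the same total and to -0.02 after quantile normalization.

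*GATA2* (ENSG00000179348.12), the zinc-finger factor, lies on the minus strand of chromosome 3, from 128479427 to 128493201. It had normalized counts of 38296, 34985 and 35459 in del-4, 31789, 32137 and 30731 in del-56, and 29639, 31224 and 31288 in WT. The 3 del-4 libraries stood above the other 6, and the libraries of del-56 and WT overlapped. Libraries of del-4 and WT did not overlap, in either direction, in 49.5% of all genes. The WT mean was 30717 ± 935 (SD, n = 3), against 36247 ± 1791 for del-4 and 31552 ± 732 for del-56. *GATA2* was 17.9% higher in del-4 than in WT (95% confidence interval 11.3% to 25.02%), a log2 fold change of 0.24 (SE 0.040, adjusted p = 0.000103, limma). In del-56 it differed from WT by 2.73% (interval -2.83% to 8.61%, adjusted p = 0.456, limma). Among all genes tested in del-4, 42.7% had a larger change in either direction.

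*GRHL2* (ENSG00000083307.12), the factor of epithelial junctions, lies on the plus strand of chromosome 8, from 101492439 to 101669726. It had normalized counts of 12444, 13987 and 12629.9 in del-4, 12312, 13556 and 12565 in del-56, and 10155, 11199.9 and 10806 in WT. All 6 deletion libraries were above all 3 WT libraries, and those of del-4 and del-56 overlapped almost fully. Such a lack of overlap with WT, in either direction, was found in 49.5% of all genes for del-4 alone and in 48.7% for del-56 alone. The WT mean was 10720.1 ± 528 (SD, n = 3), against 13020.0 ± 842 for del-4 and 12811 ± 658 for del-56. *GRHL2* was 21.4% higher than in WT in del-4 (interval 13.5% to 29.9%), a log2 fold change of 0.28 (adjusted p = 9.02e-05, SE 0.046, limma). For del-56 it was 19.5% higher (interval 11.7% to 27.8%), a log2 fold change of 0.26 (SE 0.046, adjusted p = 0.000307, limma). A larger change in either direction was found for 37.7% of all genes in del-4 and for 40.4% in del-56.

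*SPDEF* (ENSG00000124664.11), the ETS-domain factor, lies on the minus strand of chromosome 6, from 34537802 to 34556333. It had normalized counts of 9513, 10081 and 8999.8 in del-4, 9627, 9695 and 9394 in del-56, and 10814, 12142 and 10735 in WT. All 6 deletion libraries were below all 3 WT libraries, and 1 WT library stood above the other 2. The WT mean was 11230.2 ± 791 (SD, n = 3), against 9531 ± 541 for del-4 and 9572 ± 158 for del-56. *SPDEF* fell by 15.1% in del-4 (interval -21.0% to -8.77%), a log2 fold change of -0.24 (SE 0.049, adjusted p = 0.000802, limma). In del-56 it fell by 14.6% (interval -20.2% to -8.64%), a log2 fold change of -0.23 (SE 0.046, adjusted p = 0.000896, limma). With no filter on low values, the adjusted p of *SPDEF* in del-4 was 0.0692, with the same log2 fold change. Without the WT library of 12142 the log2 fold changes were -0.18 and -0.17, and both calls held.

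The deletion clones were also compared with each other, because a call in 1 clone and not in the other does not show that they differ. *GATA2* was the only factor called, beside 19.9% of 17447 genes (10.9% higher in del-4). It was 14.8% higher in del-4 than in del-56 (interval 8.29% to 21.7%, adjusted p = 0.00155, limma). With no filter on low values its adjusted p was 0.0603, and the log2 difference stayed at 0.20. The libraries of del-4 and del-56 did not overlap in 34.7% of all genes, *FOXA1* among them, which was lower in each del-4 library than in any del-56 library. Its log2 difference of -0.09 was not called (adjusted p = 0.134, limma), but after rescaling to the same total it was -0.13 (adjusted p = 0.0307) and after quantile normalization -0.14 (adjusted p = 0.0383). *GRHL2* differed by 0.02 on the log2 scale (adjusted p = 0.796, limma), with an interval from -5.23% to 8.88% of the del-56 level. No factor passed the stricter rule, which 4.28% of genes did. *SPDEF* differed by -0.01 (adjusted p = 0.927, limma, interval -6.56% to 5.90%) and *HOXB13* by -0.03 (adjusted p = 0.674, limma, interval -7.04% to 3.58%). Of all genes called between the clones, 54.7% were higher in del-4, and 36.7% were after rescaling to the same total.

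**Figure D2:**
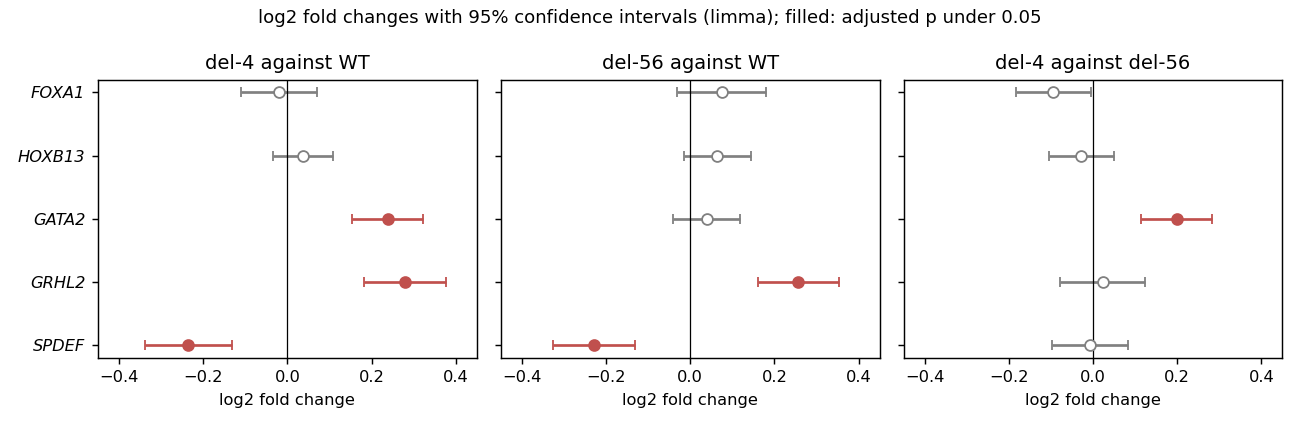
log2 fold change (x axis) of each factor in del-4 against WT, del-56 against WT and del-4 against del-56, as points with 95% confidence intervals from limma. Filled points had an adjusted p under 0.05, which were *GATA2*, *GRHL2* and *SPDEF* in del-4, *GRHL2* and *SPDEF* in del-56, and *GATA2* between the clones.

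Ratios of 2 factors within a library do not depend on how the library was scaled. They were computed for all 10 pairs, and the pairs described here were chosen after their values were seen, so they are given with no test. The count ratio of *GRHL2* to *SPDEF* was 1.31, 1.39 and 1.40 in del-4, 1.28, 1.40 and 1.34 in del-56, and 0.939, 0.922 and 1.01 in WT. *GRHL2* thus had more reads than *SPDEF* in all 6 deletion libraries, by at least 1.28 times, and about as many in WT. The count ratio of *HOXB13* to *GATA2* was 1.01, 1.07 and 1.07 in del-4, 1.27, 1.18 and 1.25 in del-56, and 1.26, 1.19 and 1.17 in WT, so that only del-4 stood apart. The ratio of *FOXA1* to *HOXB13* ranged from 0.989 to 1.07 in del-4, from 1.04 to 1.10 in del-56 and from 0.979 to 1.12 in WT, and the clones overlapped.

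**Figure D3:**
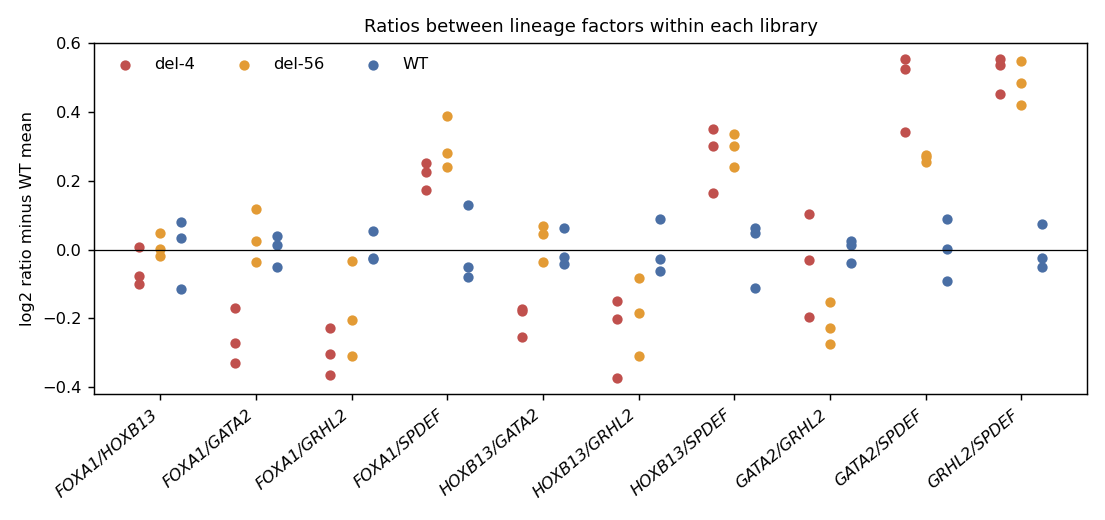
log2 ratio of the normalized counts of each pair of factors in each library, minus the mean of the 3 WT libraries (y axis), as points by clone. The ratio of *GRHL2* to *SPDEF* was above all WT libraries in both deletion clones, while that of *FOXA1* to *HOXB13* overlapped between the clones.

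To see whether the changes followed the position of the genes, the 25 tested genes on each side of every factor were examined. Around *GRHL2* the median log2 fold change was 0.02 for del-4 and -0.01 for del-56, and *GRHL2* exceeded it by 0.26 in both clones. Around *SPDEF* the median was 0.15 for del-4 and 0.11 for del-56, so that *SPDEF* lay 0.39 and 0.34 below its neighbours on the log2 scale. Around *GATA2* the median was 0.04 for del-4 and 0.03 for del-56. Around *HOXB13* it was 0.05 for del-4 and 0.09 for del-56, against 0.04 and 0.06 for the gene itself, and around *FOXA1* it was -0.01 and -0.03. The chromosomes of the 5 factors had medians between -0.02 and 0.05 in either clone.

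For each factor the 3 genes with the most similar pattern over the 9 libraries were found among 15373 genes, by the root mean square difference of centred log2 values. The genes nearest to *GRHL2* were *MED10*, a Mediator subunit (0.036), *SLC30A7*, a zinc transporter (0.038), and *PALS2*, a scaffold protein of cell junctions (0.038). *MED10* had log2 fold changes of 0.25 for del-4 and 0.21 for del-56. Nearest to *SPDEF* were *GMPPB*, an enzyme of GDP-mannose synthesis (0.033), *TRMT61A*, a tRNA methyltransferase subunit (0.041), and *ZNF263* (0.043), of which *ZNF263*, on chromosome 16, had log2 fold changes of -0.30 and -0.27. Nearest to *GATA2* were *RXRA*, the retinoid X receptor alpha (0.029), *ACADVL*, an enzyme of fatty acid oxidation (0.029), and ENSG00000288053 (0.038). *RXRA* had log2 fold changes of 0.28 for del-4 and 0.10 for del-56. *FOXA1* was closest to *PIM3*, *CTBP1* and *CDK13* (0.027 to 0.028), and *HOXB13* to *TOMM40*, *SMARCC1* and *BAG1* (0.016 to 0.018). *FOXA1* and *HOXB13* themselves varied by only 0.073 and 0.037 about their means.

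Many relatives of the factors were low in these cells. The mean of 8 of 15 relatives did not exceed 19.3 normalized counts in any clone, and 12 were tested. In del-4, 2 of 12 were called higher and 4 lower, and the median log2 value was -0.24. In del-56, 5 were higher and 2 lower, with a median of 0.07. The 7 calls in del-56 made up 58.3% of the tested relatives, beside 39.7% of all genes, and the 6 calls in del-4 compare with 40.7% of all genes. The median over all genes was -0.0028 for del-4 and -0.0011 for del-56. *GRHL1*, a paralog of *GRHL2*, had a WT mean of 952 ± 66.8 (SD, n = 3), against 749 ± 33.2 for del-4 and 848 ± 51.0 for del-56. On the log2 scale this was -0.34 for del-4 (adjusted p = 0.0032, limma) and -0.17 for del-56 (adjusted p = 0.14, limma). *GRHL1* thus fell in del-4, where *GRHL2* rose. It lies on chromosome 2, where the median gene was at -0.15 and -0.16 on the log2 scale, and *GRHL3* was called in neither clone. *GATA6* rose from 832 ± 79.3 (SD, n = 3) in WT to 1042 ± 72.4 in del-4 and 982 ± 60.1 in del-56, with log2 fold changes of 0.33 (adjusted p = 0.0063, limma) and 0.24 (adjusted p = 0.044, limma). *HOXC13*, a homeobox relative of *HOXB13*, fell from 2311 ± 109 in WT to 1897 ± 203 and 1859 ± 104, by 0.29 (adjusted p = 0.0029, limma) and 0.31 (adjusted p = 0.00067, limma) on the log2 scale.

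Among the epithelial ETS genes, which are relatives of *SPDEF*, *ELF5* separated the deletion clones. It had normalized counts of 109, 108 and 110.5 in del-4, 242, 265 and 289.8 in del-56, and 143, 174 and 119 in WT. Against WT the log2 values were -0.39 for del-4 (adjusted p = 0.14, limma) and 0.88 for del-56 (adjusted p = 0.00098, limma), and del-4 was 1.27 lower than del-56 on the log2 scale (adjusted p = 3.4e-05, limma). *EHF*, named after its values were seen because it had the highest counts of these relatives, had a mean of 49303 in WT, 42975 for del-4 and 46952 for del-56, with log2 fold changes of -0.20 (adjusted p = 0.00045, limma) and -0.07 (adjusted p = 0.15, limma). *FOXA2* was at 0 in every library, and *GATA3* and *HOXD13* were too low to be tested. The calls of *HOXA13*, lower in both clones, and of *GATA4* and *GATA5*, higher in del-56, rested on means of at most 19.3 normalized counts. *GATA5* had 15.3, 40.2 and 2.43 normalized counts in del-56 and at most 2.01 in any other library.

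Partners and coregulators of the factors changed in both directions. In del-4, 9 of 23 were called higher and 8 lower, and in del-56, 7 were higher and 5 lower, with medians of -0.0046 and 0.0079. The share called was 73.9% and 52.2%, beside 40.7% and 39.7% of all genes. The shares over all genes include genes with a mean as low as 1 normalized count, and no share at matched levels was computed. This list and those below were also chosen with earlier results of these data known, so a higher share is not a test of the list. *KDM1A*, a histone demethylase that works with the androgen receptor, had normalized counts of 18009.9, 19155 and 18102 in del-4, 20734, 20461 and 20459 in del-56, and 13177, 13345 and 13231 in WT. Every deletion library was above WT by a wide margin, with log2 fold changes of 0.47 for del-4 (adjusted p = 6.7e-09, limma) and 0.63 for del-56 (adjusted p = 7.4e-10, limma). *ZFPM2*, which encodes a cofactor that binds GATA proteins, rose by 0.48 and 0.45 on the log2 scale (adjusted p = 4.0e-06 and 1.8e-05, limma). *KDM1A* lies on chromosome 1, where the median gene was at 0.11 and 0.12 on the log2 scale. *MEIS1*, which encodes a homeobox cofactor of HOX proteins, fell by 0.52 for del-4 and 0.31 for del-56 (adjusted p = 0.00024 and 0.015, limma), and lies on chromosome 2, with its medians of -0.15 and -0.16.

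Of 11 other transcription factors of luminal prostate cells, 4 were called higher and 3 lower in del-4, and 3 higher and 6 lower in del-56, with medians of -0.02 and -0.13. These were 63.6% and 81.8% of the list, beside 40.7% and 39.7% of all genes. *CREB3L4*, a membrane-bound factor of secretory prostate cells, fell from 10693 ± 571 (SD, n = 3) in WT to 5838 ± 293 in del-4 and 6114 ± 217 in del-56, by 0.87 and 0.81 on the log2 scale (adjusted p = 5.5e-11 and 1.2e-09, limma). *TRPS1*, a GATA-type repressor, fell by 0.51 and 0.68 (adjusted p = 1.4e-06 and 1.3e-06, limma). *SOX9* rose in del-56 by 0.60 (adjusted p = 0.0016, limma), where del-4 had a log2 fold change of -0.35 (adjusted p = 0.15, limma), and the clones differed by 0.95, lower in del-4 (adjusted p = 0.00086, limma).

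Androgen response genes were called in both directions. In del-4, 6 of 15 were called higher and 4 lower, and in del-56, 9 were higher and 3 lower, with medians of -0.06 and 0.18. The list was called at 66.7% and 80.0%, against 40.7% and 39.7% over all genes. Between the clones, 2 were called higher and 8 lower in del-4, or 66.7%, against 19.9% over all genes. *TRPM8*, a cation channel gene, had a WT mean of 2345 ± 7.85 (SD, n = 3), against 4744 ± 156 for del-4 and 5866 ± 105 for del-56, with log2 fold changes of 1.02 (adjusted p = 7.1e-12, limma) and 1.32 (adjusted p = 2.3e-12, limma). *PMEPA1* rose by 0.54 and 0.53 on the log2 scale, and *KLK2*, a kallikrein, fell by 0.71 and 0.53. *STEAP4* had between 9.60 and 51.5 normalized counts in any library and was called lower in del-4 against WT (adjusted p = 0.027, limma) and against del-56 (adjusted p = 0.0017, limma). The kallikrein *KLK3*, which encodes prostate-specific antigen and was named after its values were seen, went opposite ways. It rose by 0.25 in del-4 (adjusted p = 0.00029, limma), its log2 value for del-56 was -0.39 (adjusted p = 1.1e-05, limma), and the clones differed by 0.63 (adjusted p = 5.3e-09, limma). *KLK2* and *KLK3* are close paralogs, and reads may have been divided between them.

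Of 12 epithelial genes linked to GRHL2, 2 were called higher and 6 lower in del-4, and 3 higher and 5 lower in del-56, with medians of -0.06 and -0.07. In each clone 66.7% of the list was called. Over all genes 20.5% were higher and 20.2% lower in del-4, and 19.2% were higher and 20.5% lower in del-56. *CLDN3*, a tight junction claudin, had normalized counts of 1371, 1158 and 1201 in del-4, 1423, 1381 and 1193 in del-56, and 5594, 6039 and 5343 in WT. It fell by 2.19 and 2.09 on the log2 scale (adjusted p = 2.1e-14 and 2.1e-12, limma). *CDH1*, which encodes E-cadherin, fell from 48575 ± 1167 (SD, n = 3) in WT to 39938 ± 1585 and 39820.0 ± 1966, by 0.28 and 0.29 (adjusted p = 9.4e-06 and 4.8e-05, limma). *ESRP2*, an epithelial splicing regulator, fell by 0.33 and 0.15 (adjusted p = 1.7e-05 and 0.022, limma). *CDH1* and *ESRP2* both lie on chromosome 16, where the median gene was at -0.34 in del-4 and at -0.31 in del-56 on the log2 scale against WT. *RAB25*, a trafficking GTPase of epithelia, rose by 0.37 and 0.39 (adjusted p = 9.8e-07 and 2.3e-06, limma), on chromosome 1 with its medians of 0.11 and 0.12.

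Of 10 secretory genes linked to SPDEF, 2 were called higher and 3 lower in del-4, and 1 was higher and 1 lower in del-56, with medians of -0.52 and -0.17. The 5 calls in del-4 compare with 40.7% of all genes, and the 2 calls in del-56 are a smaller share of the list than the 39.7% of all genes. Several of these genes had few reads. *AGR2*, a disulfide isomerase of secretory cells, had normalized counts of 1645, 1217 and 1247 in del-4, 1410.2, 1393 and 1414 in del-56, and 1975, 1977 and 1833 in WT. It fell by 0.51 and 0.45 on the log2 scale (adjusted p = 0.00019 and 2.1e-05, limma), and all 6 deletion libraries were below WT. *TFF3*, a trefoil factor, fell by 1.18 in del-4 (adjusted p = 9.6e-05, limma), against a log2 value of 0.08 in del-56 (adjusted p = 0.77, limma), and the clones differed by 1.26 (adjusted p = 0.00023, limma). *FCGBP*, a mucus protein gene, fell by 0.38 in del-4 (adjusted p = 0.0017, limma), against -0.16 in del-56 (adjusted p = 0.25, limma), but the clones were not called different from each other (adjusted p = 0.17, limma). *MUC1*, a membrane mucin gene, had 21.1, 64.7 and 34.2 normalized counts in del-4, 33.4, 21.1 and 4.85 in del-56, and 6.76, 11.6 and 9.43 in WT, and was called higher in del-4 (adjusted p = 0.0046, limma).

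**Figure D4:**
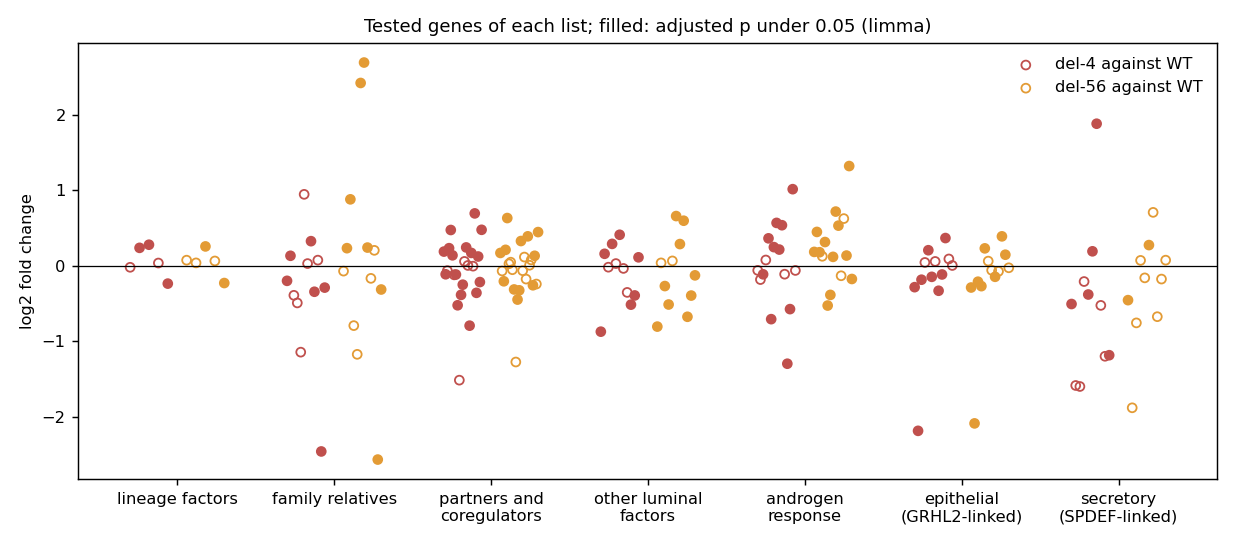
log2 fold change (y axis) of the tested genes of each list in del-4 and del-56 against WT, 1 point per gene, filled where the adjusted p was under 0.05 (limma). The lineage factors stayed within 0.28 of WT in either direction. Every list, the lineage factors included, held genes on both sides of 0.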

How the data were processed

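RNA-seq libraries from 3 cultures each of the LNCaP clones del-4, del-56 and WT were analysed. The authors trimmed the reads with Trim Galore (version 0.6.5 in the submitters' processing notes), aligned them with STAR to GRCh38 and used BEDTools multicov (2.27.1) to count reads of protein-coding genes. The deposited table gives signal as normalized counts, for which the authors divided by DESeq2 size factors. In every library 100.0% of the values were whole multiples of 1 step (within 0.001), from which the sums of reads were taken, although a step close to 1 in 3 libraries leaves their recovery less certain. Both mates of a pair can be counted, so reads are not independent fragments. Replicates were checked and none was a duplicate.

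Each pair of clones was compared with limma 3.58.1 in R 4.3.3 on log2(normalized count + 1), allowing a variance trend and keeping genes whose mean over the 6 libraries reached 1, so that log2 fold changes of low genes are understated. Benjamini-Hochberg adjustment ran over all tested genes, and genes were called at an adjusted p under 0.05. Of 19984 genes, 19923 were matched to symbols and lengths in GENCODE version 44. The factors and gene lists were chosen with earlier results of these data known. Up to 4 called genes per list, with a mean of at least 10 and the largest mean absolute log2 fold change of the deletion clones, were named, with the 3 genes most similar to each factor. Some genes that this rule names are not reported here. Other steps ran in Python 3.11.15.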

Additional observations from a re-analysis of the deposited data

Results flagged for a closer look

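The effect on *GATA2* differed between the deletion clones. The log2 fold change against WT in del-4 minus that in del-56 was 0.20, and the direct comparison of the clones had an adjusted p of 0.00155 (limma, Benjamini-Hochberg adjustment). The 3 del-4 libraries, with 34985 to 38296 normalized counts, were all above the 3 del-56 libraries, with 30731 to 32137. With 1 library left out in turn, the difference lay between 0.16 and 0.22 and stayed called. With no filter on low values it was not called (adjusted p = 0.0603, limma). Between these clones 19.9% of 17447 genes were called, 34.7% had libraries that did not overlap, and 36.6% had a larger difference than *GATA2*. The call of 1 of 5 factors lies near the share over all genes and does not set *GATA2* apart from genes in general.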

How the results depend on the processing

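Other settings tried were a pseudocount of 0.5 or 5, a fit with no filter on low values or with a minimum mean of 10, quantile normalization, rescaling of libraries to 1 total, 1 joint fit of the 9 libraries, a replicate block, and fits that each left out 1 library. The planned count tests with edgeR and DESeq2 were not run, because whole reads were not taken as recovered for 3 libraries whose step between values was close to 1. *GRHL2* in both clones, *GATA2* in del-4 and *SPDEF* in del-56 kept their direction and call under every alternative run, with adjusted p-values of at most 0.0334, 0.0307, 0.0210 and 0.0422, respectively. *SPDEF* in del-4 lost its call with no filter on low values (-0.24, adjusted p = 0.0692), as did *GATA2* between the clones (0.20, adjusted p = 0.0603), where genes at 0 entered the fit. Then 0 factors and 1854 genes were called between the clones, beside 3469 genes with the filter. *FOXA1* between the clones passed the threshold after rescaling (-0.13) and quantile normalization (-0.14), so that 2 factors were called in each. Values near 0 changed sign. *HOXB13* in del-4 was -0.032 after rescaling and -0.022 after quantile normalization, and *GRHL2* between the clones was -0.018 after rescaling. With 1 library left out, *FOXA1* in del-4 ranged from -0.071 to 0.014, *GRHL2* between the clones from -0.030 to 0.064 and *SPDEF* between the clones from -0.049 to 0.033. Genes called between the clones ranged from 2268, without del-4 replicate 3, to 3537. Relatives called in del-56 numbered 3 or 4 in place of 7 with no filter, with a mean of at least 10, and without del-56 replicate 1, del-56 replicate 3 or WT replicate 2. With no filter, relatives called numbered 2 in place of 6 in del-4 and 3 in place of 7 in del-56. Epithelial genes called in del-56 numbered 5 in place of 8 with no filter and without WT replicate 3. Androgen response genes called with no filter numbered 6 for del-4 and 7 for del-56, in place of 10 and 12. Adjusted p-values over the settings other than left-out libraries ran from 6.89e-05 to 0.0692 for *SPDEF* in del-4, and between the clones from 0.00118 to 0.0603 for *GATA2* and from 0.0307 to 0.323 for *FOXA1*. The cause of these changes was not tested.

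The replicate numbers paired the libraries weakly at most. Deviations from the clone means correlated between -0.05 and 0.06 for libraries of the same number in different clones. They correlated between -0.05 and 0.04 for libraries of different numbers. The same-number pairs that included del-4 were all positive, between 0.02 and 0.06, and whether this is a weak pairing was not tested. With the replicate block, 7038, 6035 and 3393 genes were called in del-4, in del-56 and between the clones, against 7082, 6938 and 3469 without it. With the block *GRHL2* had adjusted p-values of 1.01e-05 for del-4 and 0.000781 for del-56, and no call of a factor changed. Relatives called in del-56 fell to 3 with the block. At 3 cultures of 1 clone each, differences of a few percent were not detectable for *FOXA1* and *HOXB13*.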
